A study of Mus musculus with 3 samples.

Results

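Immunity-related GTPases (IRG proteins) and guanylate-binding proteins (GBP proteins) are families of GTPases that mouse cells make in response to interferon gamma. The genes described here were chosen by name, with earlier results of these data known. They were 4 IRG genes (Igtp, Irgm1, Irgm2 and Iigp1) and 6 GBP genes (Gbp2, Gbp3, Gbp4, Gbp5, Gbp7 and Gbp9). All 10 were present in each of the 3 deposited expression tables, which held 17678 genes for naive brain, 16462 for naive blood and 16887 for blood of metastasis-bearing mice. The cells came from 1 pool of 8 hashed samples, in which every sample had been stained with its own barcoded antibody before single-cell RNA sequencing. The samples compared were 2 naive brain samples of CCR2-/- mice and 2 of CCR2+/- mice. In blood they were single samples from metastasis-bearing Hom, metastasis-bearing Het, naive Hom and naive Het mice. All mice were females of 2 to 3 months on a C57Bl/6 background, and the study used CCR2 and Cx3cr1 heterozygotes and homozygotes. Metastasis-bearing mice had received E0771 cells, a mouse breast cancer line, into the carotid artery about 2 weeks earlier. For blood the labels give Het or Hom without a gene, and no group was wild type. Blood was taken before perfusion and freed of red cells by lysis, and brain tissue was digested and enriched for immune cells on a density gradient. Nothing in the labels says that the hashed samples of a genotype were separate mice, so p-values measure the spread between these samples alone.

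Interferon gamma is made mainly by T cells and natural killer cells and binds its receptor on many cell types. Its target genes carry GAS and ISRE elements in their promoters, and IRF factors such as IRF1 bind ISRE elements. The IRG and GBP proteins made in response gather on membranes that enclose intracellular microbes, and they take part in autophagy and in inflammasome activation. Endothelial cells, microglia and leukocytes can all respond to interferon gamma.

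The analysis used 3350 of 5208 brain cells, 3694 of 5363 naive blood cells and 4019 of 5757 blood cells of metastasis-bearing mice. Because 2401 barcodes appeared in more than 1 table, a cell was kept only if its barcode was unique to a table and hashtags belonging to that table gave a share of 0.5 or more of its hashtag counts. The samples kept 675 to 2074 cells, with median depths of 3928 to 7394 UMIs per cell and 4420428 to 9267629 corrected counts. Levels are corrected counts per 10000 corrected counts of the same cells. In brain cluster 3, Ccr2, the targeted gene, had levels of 0.29 and 0.47 in CCR2-/- samples, against 2.66 and 3.16 in CCR2+/- samples, so the brain labels and the gene go the same way. In the monocyte-like cells of blood, Ccr2 had levels of 15.7 in metastasis Hom, 17.7 in metastasis Het, 12.6 in naive Hom and 12.2 in naive Het. In the same cells Cx3cr1 had levels of 0.277 in metastasis Hom and 2.20 in metastasis Het, and 0.426 in naive Hom and 3.18 in naive Het.

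The authors' brain clusters 0, 1, 3, 4 and 6 had at least 20 cells in every brain sample. Cluster 6 was endothelial-like: all 10 endothelial markers (such as Cldn5, Pecam1, Flt1 and Kdr) were raised at least 2-fold over the other clusters. The 7 pericyte and 7 fibroblast markers were raised there too, so the cluster also held other vessel-associated cells. Cluster 1 was microglia-like, with 8 of 8 markers raised. Cluster 3 led with MHC class II genes, Mgl2 and Cd209a and mixed macrophage and dendritic cell markers. Cluster 4 led with Gzma, Xcl1 and Nkg7 and carried both T cell and natural killer cell markers with haemoglobin genes. Cluster 0 led with mitochondrial genes at a median of 1563 UMIs per cell, and clusters 0, 3 and 4 were left unnamed.

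Promoter sequence was available for 7 of the 10 genes in RefSeq (GRCm38.p6), and not for Gbp4, Gbp9 and Iigp1. Igtp (chr11:58199556-58207592) and Irgm2 (chr11:58214977-58222783) are neighbours on chromosome 11, and Irgm1 (chr11:48865245-48871420) lies apart on the same chromosome. Gbp5 (chr3:142496934-142522344), Gbp7 (chr3:142530336-142550151), Gbp3 (chr3:142560016-142573213) and Gbp2 (chr3:142620663-142638008) form a row on chromosome 3. Gbp9 (chr5:105076464-105110357) and Gbp4 (chr5:105115767-105139586) adjoin each other on chromosome 5. The 250 bases before the start were searched for the ISRE core GAAANNGAA, which reads TTCNNTTTC on the other strand, and for GAS, TTCNNNGAA, which reads the same on both strands. The ISRE core was found in a promoter of each of the 7 genes, against 7.13% of 32851 promoters in the same table. GAS was found in 4 of the 7, Igtp, Irgm2, Gbp5 and Gbp7, against 7.02% of all promoters. Gbp3 had 2 listed promoters, of which 1 held the ISRE core, and the same windows of Irgm1 and Gbp2 held the ISRE core and no GAS.

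The promoters of the 4 genes with both motifs are shown. Of these genes Igtp, Gbp5 and Gbp7 were called in brain cluster 6 and Irgm2 was not, while Gbp4, also called, had no promoter sequence. Whether the motifs bear on the calls was not tested. Capitals mark the ISRE core and GAS matches, and each sequence runs 5′ to 3′ on the gene's strand up to the base before the start. A match describes these letters and is not a measured binding site.
Igtp, chr11:58199306-58199555, plus strand: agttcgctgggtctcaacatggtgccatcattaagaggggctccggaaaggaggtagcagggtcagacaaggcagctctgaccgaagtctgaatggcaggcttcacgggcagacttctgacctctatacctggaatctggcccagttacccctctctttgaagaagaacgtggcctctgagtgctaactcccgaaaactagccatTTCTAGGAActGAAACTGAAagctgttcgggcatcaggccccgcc
Irgm2, chr11:58214727-58214976, plus strand: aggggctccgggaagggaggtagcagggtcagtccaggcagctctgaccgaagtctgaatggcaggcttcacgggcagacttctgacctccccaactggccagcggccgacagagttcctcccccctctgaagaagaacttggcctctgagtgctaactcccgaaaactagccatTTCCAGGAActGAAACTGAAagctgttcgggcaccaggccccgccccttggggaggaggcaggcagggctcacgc
Gbp5, chr3:142496684-142496933, plus strand: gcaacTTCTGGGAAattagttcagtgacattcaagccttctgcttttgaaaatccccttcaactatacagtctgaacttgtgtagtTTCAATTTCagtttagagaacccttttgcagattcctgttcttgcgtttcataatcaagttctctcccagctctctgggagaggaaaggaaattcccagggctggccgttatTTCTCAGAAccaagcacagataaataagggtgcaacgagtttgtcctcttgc
Gbp7, chr3:142530086-142530335, plus strand: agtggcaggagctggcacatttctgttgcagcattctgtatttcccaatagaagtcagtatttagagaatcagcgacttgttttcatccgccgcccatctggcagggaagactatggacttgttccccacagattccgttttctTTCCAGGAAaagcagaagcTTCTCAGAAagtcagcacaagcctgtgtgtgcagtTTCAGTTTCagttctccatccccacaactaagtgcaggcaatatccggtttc

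The Igtp and Irgm2 windows were identical at 197 of 214 aligned bases (92.1%), and in both the GAS match stood just before the ISRE core. In Igtp the GAS match began 45 bases and the ISRE core 34 bases before the start. In Irgm2 they began 75 and 64 bases before it. In Gbp7 the 2 GAS matches began 106 and 87 bases before the start and the ISRE core 52 bases before it. In Gbp5 the GAS matches began 245 and 52 bases before the start, with the ISRE core at 164 bases.

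In the endothelial-like cluster 6 of naive brain, the 2 CCR2-/- samples lay above the 2 CCR2+/- samples for every one of the 10 GTPase genes. How many of all genes had this order was not counted, so the order has no background beside it. A log2 difference above 0, which is a looser condition, was found for 3698 of the 9485 genes tested. The summed level of the 10 genes was 29.2 and 16.8 in CCR2-/- samples, against 6.19 and 6.44 in CCR2+/- samples. Limma called 4 of the 10 genes higher in CCR2-/- samples: Gbp4, Gbp7, Igtp and Gbp5. Of all 9485 genes tested in this cluster, 0.137% (13 genes) were called in either direction, of which 10 were higher and 3 lower. The comparison asks whether loss of CCR2, the receptor that brings Ly6c-high monocytes out of bone marrow, goes with a changed expression of these genes in the brain. All 10 genes had at least 20 corrected counts, the minimum for testing, and their median log2 difference was 1.67, against -0.11 over all genes tested.

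**Figure D1:**
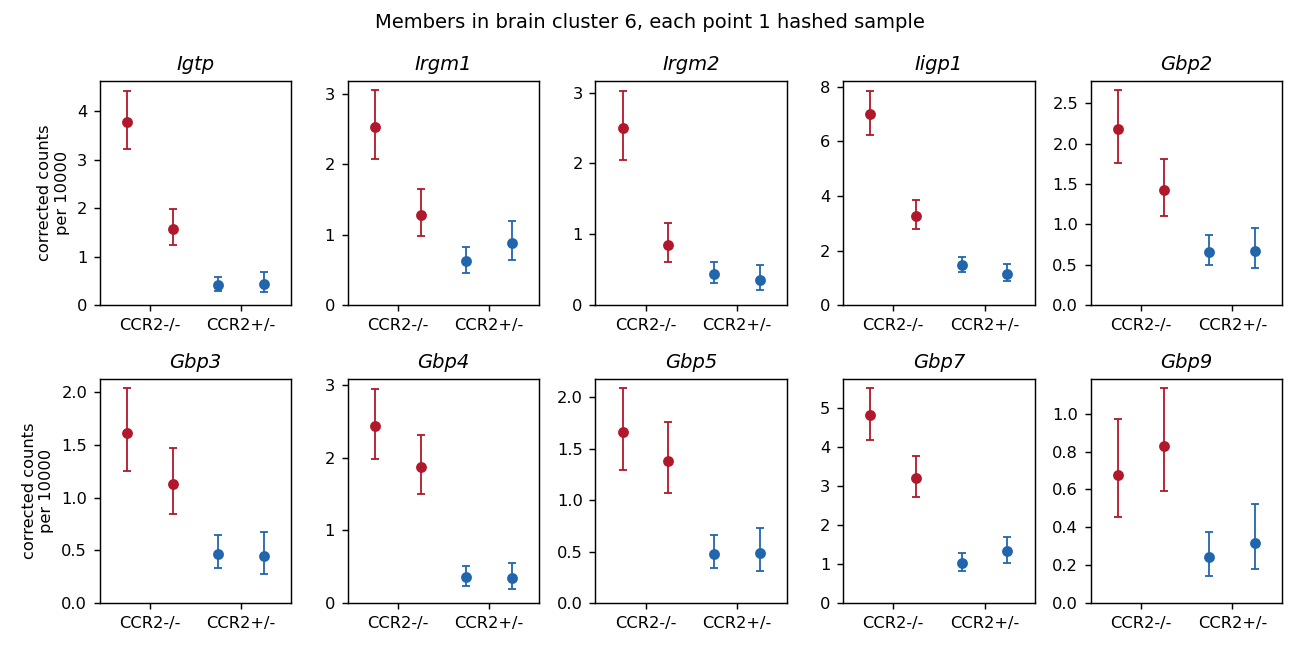
Level of each of the 10 genes in brain cluster 6 (y axis, corrected counts per 10000, starting at 0), with CCR2-/- samples in red at the left and CCR2+/- samples in blue at the right. Each point is 1 hashed sample and bars are exact 95% Poisson intervals, which cover counting error only; in every panel both red points lie above both blue points.

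The regulatory IRG proteins of the IRGM group sit on the cell's own membranes and hold the effector IRG proteins inactive there. Igtp, also known as Irgm3, is found on the endoplasmic reticulum and lipid droplets. It had levels of 3.79 and 1.58 in CCR2-/- samples, against 0.417 and 0.443 in CCR2+/- samples. The 2 CCR2-/- samples differed from each other by more than the CCR2+/- samples did, and the genotypes did not overlap. Its log2 difference was 2.46 (SE 0.36), with an adjusted p of 0.0414 in limma. Irgm2, linked to the Golgi apparatus, had levels of 2.5 and 0.852 in CCR2-/- samples, against 0.443 and 0.359 in CCR2+/- samples. Irgm1, linked to lysosomes and to autophagy, had levels of 2.52 and 1.28 in CCR2-/- samples, against 0.620 and 0.886 in CCR2+/- samples. For both genes the first CCR2-/- sample stood well above the second, and neither difference passed the test. The log2 difference of Irgm2 was 1.83 (SE 0.43, adjusted p = 0.237, limma). That of Irgm1 was 1.26 (SE 0.33, adjusted p = 0.331, limma).

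Iigp1, also known as Irga6, is an effector IRG protein that loads onto the vacuole of Toxoplasma. It had levels of 7.01 and 3.28 in CCR2-/- samples, against 1.47 and 1.16 in CCR2+/- samples. The genotypes did not overlap, and the log2 difference of 1.86 (SE 0.32) had an adjusted p of 0.0694 in limma, above the threshold of 0.05. A count of Iigp1 was found in 62.3% and 53.8% of cluster 6 cells of CCR2-/- samples, and in 35.1% and 39.1% of those of CCR2+/- samples. In the microglia-like cluster 1, 0.487% of 1232 cells had one, at a median of 10040 UMIs per cell against 8710 in cluster 6. Shares of cells with a count were not thinned to 1 depth.

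Among the GBP genes, Gbp4 had the smallest adjusted p. Its levels were 2.43 and 1.87 in CCR2-/- samples, against 0.354 and 0.338 in CCR2+/- samples. The samples of each genotype lay close together, and the log2 difference was 2.56 (SE 0.25, adjusted p = 0.0124, limma). Gbp7, which acts at the vacuoles of intracellular microbes, had levels of 4.82 and 3.22 in CCR2-/- samples, against 1.04 and 1.33 in CCR2+/- samples. Both CCR2-/- values lay above both CCR2+/- values, with a log2 difference of 1.73 (SE 0.25, adjusted p = 0.0358, limma). Gbp5, known for promoting assembly of the NLRP3 inflammasome, had levels of 1.66 and 1.38 in CCR2-/- samples, against 0.481 and 0.485 in CCR2+/- samples. Its CCR2+/- samples were nearly equal, and its log2 difference was 1.61 (SE 0.25, adjusted p = 0.0471, limma).

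Gbp2, which coats pathogen vacuoles and bacteria, had levels of 2.17 and 1.43 in CCR2-/- samples, against 0.658 and 0.675 in CCR2+/- samples. Gbp3 had levels of 1.61 and 1.13 in CCR2-/- samples, against 0.468 and 0.443 in CCR2+/- samples. Gbp9 had levels of 0.678 and 0.830 in CCR2-/- samples, against 0.240 and 0.316 in CCR2+/- samples. These 3 genes also showed no overlap between the genotypes, and none passed the test in limma. Their log2 differences were 1.38 for Gbp2 (adjusted p = 0.126), 1.53 for Gbp3 (adjusted p = 0.0854) and 1.38 for Gbp9 (adjusted p = 0.234). Gbp9 was the exception in the order of the CCR2-/- samples: for the other 9 genes the first sample was above the second.

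Several of the genes were found together in the same cells. At least 5 of the 10 genes had a count in 59.0% of 61 cluster 6 cells and 53.8% of 65 cells of the CCR2-/- samples, against 18.9% of 111 cells and 20.3% of 64 cells of the CCR2+/- samples. The median number of these genes with a count per cell was 7 and 5 in CCR2-/- samples and 2 and 2 in CCR2+/- samples. At least 1 of the genes had a count in 88.5% and 90.8% of cells of CCR2-/- samples and in 82.0% and 92.2% of those of CCR2+/- samples. The genotypes therefore overlapped in the share of cells with any of these genes and were apart in the share with 5 or more. The tenth of cells with most counts held 37.1% and 33.5% of the summed counts in CCR2-/- samples, and 40.3% and 36.4% in CCR2+/- samples.

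The calls depended on single samples. Without either CCR2-/- sample limma called none of 8931 or 8890 genes, without the first CCR2+/- sample it called 9 of the 10 (2.72% of all genes), and without the second all 10 (2.13%). With a hashtag share of at least 0.8 it called none of 8546 genes, and the 4 genes named above then had log2 differences of 1.62 to 2.42 with adjusted p-values of 0.051 to 0.113. It called 3 of the 10 with no minimum count (0.0588% of all genes), 5 with upper quartile scaling (0.19%), 1 in cells thinned to 1000 corrected counts (0.495%) and 9 on mean ln values (0.622%). In thinned cells Gbp4 was called (log2 difference 2.52), while Gbp5 had a log2 difference of 0.11 (adjusted p = 0.989, limma), Irgm2 one of 0.53 and Iigp1 one of 1.05.

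**Figure D2:**
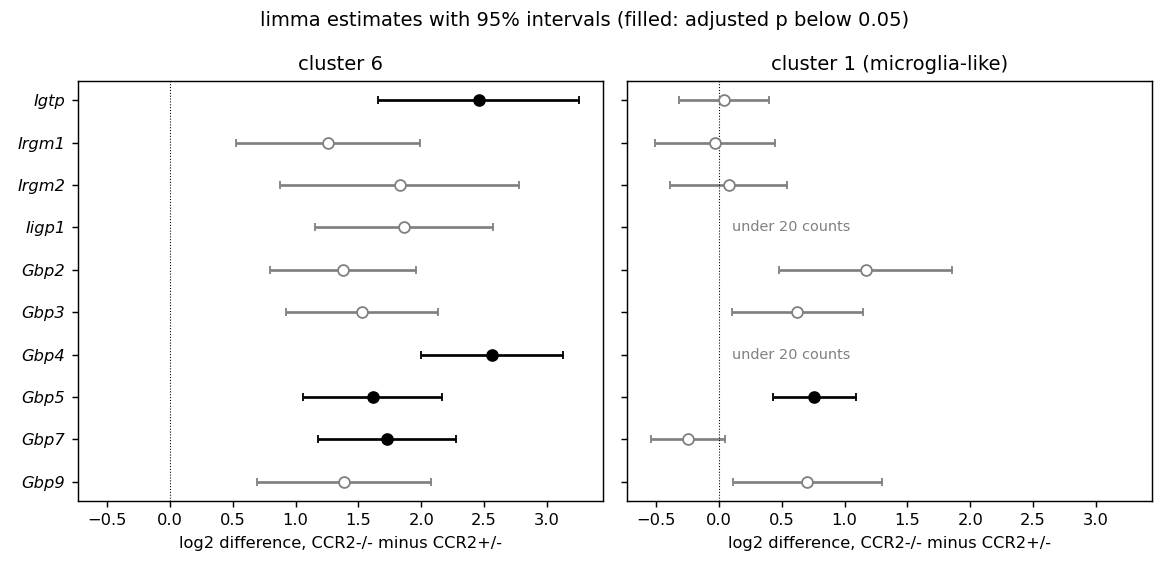
Limma log2 difference of each gene (x axis, CCR2-/- minus CCR2+/-) with its 95% interval in cluster 6 (left) and in the microglia-like cluster 1 (right). Filled points passed an adjusted p of 0.05; in cluster 6 all 10 estimates lie above 0 and 4 are filled, and in cluster 1 only Gbp5 is filled.

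Cluster 6 was split by markers into cells with more endothelial than pericyte or fibroblast counts, and the rest. This split was chosen after the data had been seen. Endothelial-marker cells made up 80.3% and 89.2% of the cluster in CCR2-/- samples, against 67.6% and 64.1% in CCR2+/- samples, so their share moved with the genotype. The part of this share in the whole cluster's difference was not tested. Among endothelial-marker cells alone, the summed level of the 10 genes was 36.5 and 18.5 in CCR2-/- samples, against 7.59 and 7.89 in CCR2+/- samples. Limma called 8 of the 10 genes in these cells (0.427% of 7961 genes), all except Irgm1 and Gbp9. The log2 differences there were 2.61 for Igtp, 2.25 for Gbp4 and 1.68 for Iigp1, against 2.46, 2.56 and 1.86 in the whole cluster.

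The endothelial-marker cells were further divided by Plvap, Esm1 and Plpp3, genes of fenestrated vessels, against Cldn5 and Slco1a4, genes of the blood-brain barrier, with ties counted on the Plvap side. Cells on the Plvap side had a summed level of 42.9 and 21.9 in CCR2-/- samples, against 9.79 and 7.63 in CCR2+/- samples. They numbered 35 and 34 cells in CCR2-/- samples and 34 and 32 in CCR2+/- samples. Their share of cluster 6 was higher in both CCR2-/- samples, at 57.4% and 52.3%, against 30.6% and 50% in CCR2+/- samples, and its part in the whole cluster's difference was not tested. Cells on the Cldn5 side had a summed level of 21.2 and 13.3 in CCR2-/- samples, against 5.86 and 8.77 in CCR2+/- samples, from 9 to 41 cells per sample. The genotypes did not overlap on either side. On the Plvap side limma called 8 of the 10 genes (0.487% of 6372 genes), with log2 differences of 3.26 for Igtp and 2.60 for Gbp4. Pericyte-marker and fibroblast-marker cells had a summed level of 4.04 and 3.48 in CCR2-/- samples and 3.18 and 4.03 in CCR2+/- samples, where the genotypes overlapped, from 7 to 36 cells per sample.

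**Figure D3:**
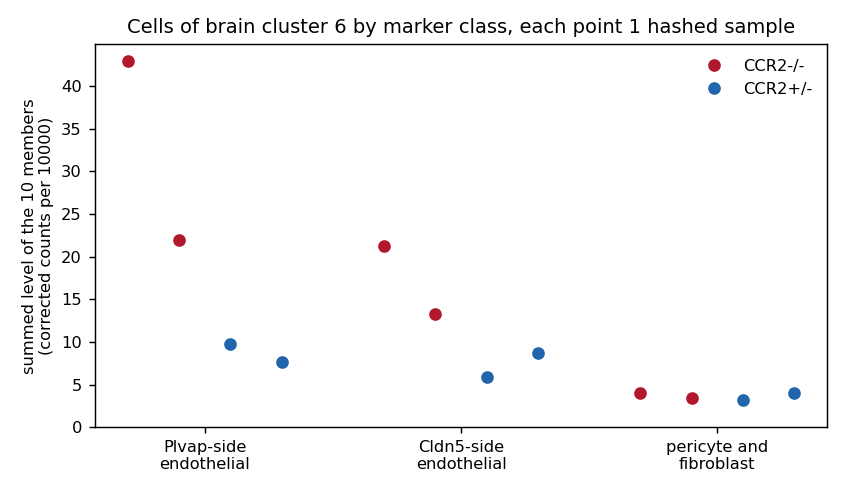
Summed level of the 10 genes (y axis, corrected counts per 10000) in 3 marker-defined kinds of cluster 6 cell, each point 1 hashed sample, CCR2-/- in red and CCR2+/- in blue. Both kinds of endothelial cell have red above blue, and pericyte and fibroblast cells have 4 points between 3.18 and 4.04.

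Markers of other cell types were also summed in cluster 6. Fibroblast markers (7 genes, none at 0) summed to 16.4 and 5.60 in cluster 6 of CCR2-/- samples, against 11.7 and 40.3 in CCR2+/- samples. Red cell markers (5 genes, 0 to 2 of them at 0) summed to 42.3 in the first CCR2+/- sample and to between 0.57 and 0.83 in the other 3 samples. T cell markers (7 genes, 3 to 6 of them at 0) summed to 0.0935 and 0.170 in CCR2-/- samples and 0.0886 and 0.0633 in CCR2+/- samples. The part of the fibroblast and red cell markers in the result was not tested.

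Other genes of the interferon gamma response were described from lists. Of the other IRG and GBP genes, 6 of 16 could be tested in cluster 6. All 6 had log2 differences above 0 without passing the test (median 1.30). The minimum count applied to all samples together, and Gm4841 passed it mainly through CCR2-/- samples (21 and 13 counts, against 3 and 0). Genes left out by the minimum went both ways. Gm4951 had 1 and 1 counts in CCR2-/- samples against 10 and 4 in CCR2+/- samples, and Gvin1 9 and 7 against 0 and 2. The 6 genes therefore do not stand for the whole list. Tgtp2, an effector IRG gene, had levels of 1.33 and 0.596 in CCR2-/- samples, against 0.139 and 0.148 in CCR2+/- samples (adjusted p = 0.0601, limma). Tgtp1 and Tgtp2 are near-identical copies, so their counts are uncertain. Of 19 other interferon gamma targets tested, 18 were above 0 (median 1.12) and 2 were called, Tap1 and H2-K1. Tap1, which moves peptides to MHC class I, had levels of 1.94 and 1.38 in CCR2-/- samples, against 0.468 and 0.380 in CCR2+/- samples (log2 difference 1.91, adjusted p = 0.0358, limma). H2-K1, a classical MHC class I gene, had levels of 28.8 and 23.8 in CCR2-/- samples, against 11 and 10.7 in CCR2+/- samples (log2 difference 1.27, adjusted p = 0.0358, limma). Neither gene overlapped between the genotypes. Over all genes tested, 3698 of 9485 were above 0.

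Of 15 type I interferon targets tested, 13 were above 0 (median 0.67) and 1 was called, Bst2, which tethers budding viruses to the cell surface. Bst2 had levels of 6.41 and 5.45 in CCR2-/- samples, against 2.16 and 2.60 in CCR2+/- samples (log2 difference 1.31, adjusted p = 0.0432, limma). The other 3 genes called higher in this cluster were the MHC class I genes H2-Q4, H2-Q6 and H2-Q7, with log2 differences of 1.49, 2.35 and 2.43. The genes called lower were Ctgf, Tmem86a and Meg3. Of 13 autophagy and ubiquitin partners tested, 3 were above 0 (median -0.14), and of 6 inflammasome partners 5 were above 0 (median 0.74), with none called in either list.

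The ligand, its receptor and its signalling genes gave no call in cluster 6. Of 13 signalling genes tested, 10 were above 0 (median 0.34). Irf1 had levels of 1.64 and 1.09 in CCR2-/- samples, against 1.10 and 0.760 in CCR2+/- samples, which overlapped. Ifngr1, a receptor subunit, had levels of 1.61 and 1.55 in CCR2-/- samples, against 1.34 and 1.94 in CCR2+/- samples, and these overlapped too. Ifng itself had 0 counts in cluster 6 of all 4 samples, which allows a level of up to 0.0139 (3 counts over the cluster, counting error only). In cluster 4, the cluster with T cell and natural killer cell markers, Ifng had levels of 2.55 and 1.62 in CCR2-/- samples, against 1.64 and 1.87 in CCR2+/- samples. The genotypes overlapped, and the log2 difference of 0.21 had an adjusted p of 0.989 in limma.

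In microglia-like cells of cluster 1, 8 of the 10 genes had enough counts, and Gbp5 was the only one called. Of all 10713 genes tested there, 0.485% were called. Gbp5 had levels of 0.647 and 0.620 in CCR2-/- samples, against 0.310 and 0.447 in CCR2+/- samples. Both CCR2-/- values lay above both CCR2+/- values, and the log2 difference was 0.76 (SE 0.16, adjusted p = 0.0254, limma). Il1b, a cytokine processed by the inflammasome, was also called higher in these cells, with levels of 3.71 and 2.76 in CCR2-/- samples, against 1.28 and 1.68 in CCR2+/- samples (adjusted p = 0.000102, limma). Gbp2 had levels of 0.154 and 0.132 in CCR2-/- samples, against 0.0444 and 0.0836 in CCR2+/- samples, without overlap (log2 difference 1.17, adjusted p = 0.149, limma). None of the IRG genes was called. Igtp had levels of 0.302 and 0.378 in CCR2-/- samples, against 0.335 and 0.322 in CCR2+/- samples, with a log2 difference of 0.04 (95% interval -0.32 to 0.40). Irgm1 and Irgm2 also overlapped between genotypes, with log2 differences of -0.03 and 0.08. The call for Gbp5 was lost without the first CCR2+/- sample (adjusted p = 0.4, limma) and without either CCR2-/- sample (adjusted p-values of 0.0803 and 0.0824, limma). Its log2 difference was 0.50 without that CCR2+/- sample, and 0.73 and 0.79 without the first and the second CCR2-/- sample.

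Whether the genotype difference in cluster 6 differed from that in cluster 1 was tested on the difference of the clusters' log2 values within each sample. Limma called none of 8259 genes (0% called), while 540 genes (6.54%) had an unadjusted p under 0.05. Among the 8 genes that could be tested, 6 had an unadjusted p under 0.05, and all 8 differences were above 0. The differences were 2.42 for Igtp (95% interval 1.40 to 3.44) and 1.98 for Gbp7 (95% interval 1.22 to 2.73), each with an adjusted p of 0.213 in limma. For Gbp5, which was called in both clusters, the difference was 0.86 (95% interval 0.17 to 1.54).

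In the other clusters none of the genes was called by limma, of 8 tested in cluster 0 (0.101% of all genes called), 6 in cluster 3 (0.158%) and 7 in cluster 4 (0.0141%). Only Iigp1 in cluster 3 had an unadjusted p under 0.05 among the genes tested in these clusters. Over all genes, 5.51% in cluster 0, 8.27% in cluster 3 and 3.7% in cluster 4 had one. Iigp1 had levels of 0.456 and 0.529 in CCR2-/- samples of cluster 3, against 0.154 and 0 in CCR2+/- samples, from 11 and 18 counts against 7 and 0 counts. Its adjusted p was 0.244 in limma.

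Across these 5 brain clusters, with all 4 samples pooled, each of the 10 genes had its highest level in cluster 6. By genotype this held for all 10 in CCR2-/- samples and for 9 of 10 in CCR2+/- samples, where Gbp4 was higher in cluster 4. For Iigp1 the level over all 4 samples was 2.89 in cluster 6, 11.4 times that in cluster 3, the next highest, where it was 0.255. In cluster 1 the level of Iigp1 was 0.00642. For Igtp the level was 1.34 in cluster 6 and 0.339 in cluster 1, for Irgm1 1.20 in cluster 6 and 0.375 in cluster 3, and for Irgm2 0.920 in cluster 6 and 0.182 in cluster 1. For these 4 IRG genes the lowest sample of cluster 6 lay above every sample of the other 4 clusters. The gap was narrow for Igtp, at 0.417 against 0.382, and wider for Iigp1, at 1.16 against 0.529.

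The GBP genes varied more in their second cluster. Gbp4 had a pooled level of 1.09 in cluster 6, 0.622 in cluster 4 and 0.0107 in cluster 1, and its order turned with the genotype. In CCR2-/- samples it averaged 2.15 ± 0.39 in cluster 6 and 0.670 ± 0.16 in cluster 4, and in CCR2+/- samples 0.346 ± 0.012 in cluster 6 and 0.558 ± 0.027 in cluster 4 (SD, n = 2 each). Gbp5 had a level of 0.911 in cluster 6 and 0.514 in cluster 1, and 0.092 in cluster 3. Gbp7 had a level of 2.32 in cluster 6, 0.754 in cluster 4 and 0.669 in cluster 1. Gbp9 had 0.472 in cluster 6 and 0.293 in cluster 4, the smallest ratio of the 10, at 1.61. For Gbp2, Gbp4, Gbp5 and Gbp9 the lowest sample of cluster 6 fell below at least 1 sample of another cluster, so over all 4 samples those clusters overlapped. For Gbp3 (0.443 against 0.415) and Gbp7 (1.04 against 0.818) the lowest cluster 6 sample lay above every sample of the other clusters. Gbp3 had 0.833 in cluster 6 and 0.248 in cluster 3, and Gbp2 had 1.13 in cluster 6 and 0.347 in cluster 3.

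**Figure D4:**
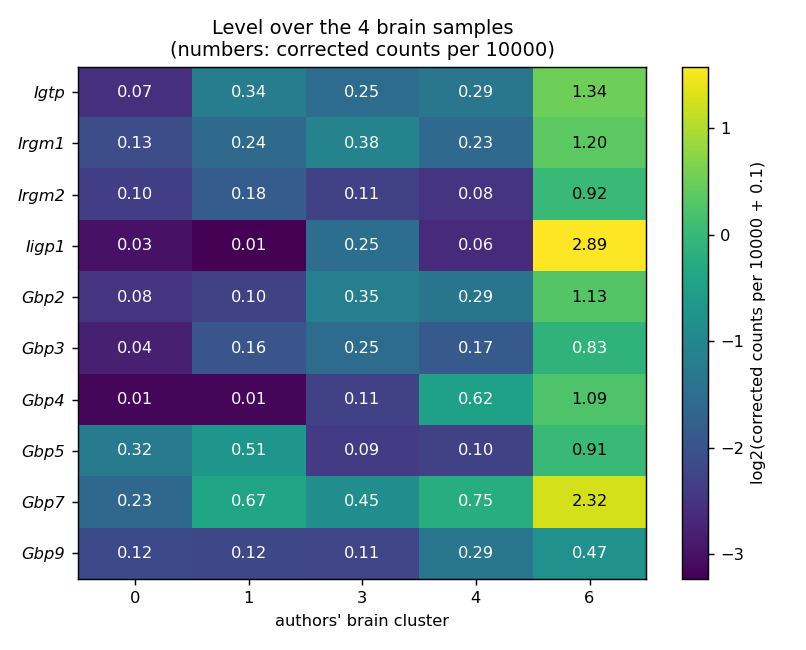
Level of each gene in the 5 authors' brain clusters with at least 20 cells in every sample, over all 4 samples. Printed numbers are corrected counts per 10000 and colour is log2 of that level plus 0.1; cluster 6 has the highest pooled value for every gene, although in CCR2+/- samples alone Gbp4 averaged 0.558 in cluster 4 and 0.346 in cluster 6.

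Over the 20 brain cluster-by-sample sums, the correlation between pairs of these genes (45 pairs) had a median Pearson r of 0.65 and ranged between 0.04 and 0.87. The sums share 1 library, their clusters and their samples. Among 5593 other genes with at least 500 corrected counts, the 8 whose levels followed the mean of the 10 most closely were Tapbp, Rab2a, Wars, Cltb, Ly6e, Rtl8a, Cyb5r3 and Fkbp1a, with r of 0.90 to 0.92. Tapbp and Wars were also on the list of interferon gamma targets. All 8 had a higher level in cluster 6 than in the other clusters, for example 0.962 against 0.164 for Wars and 2.41 against 0.144 for Rtl8a.

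In blood, Iigp1 had few counts and the other 9 genes were spread over leukocyte classes. Iigp1 had 0 counts in 1172 naive neutrophil-like cells and levels of 0.11 in the naive cluster with T cell and natural killer cell markers and 0.0117 in naive B cell-like cells. Gbp2, Gbp7, Irgm1 and Irgm2 had levels of 0.814, 0.947, 0.561 and 0.6 in naive neutrophil-like cells. Irgm1 had a level of 1.08 in naive monocyte-like cells, and Gbp4 one of 0.716 in the naive T and natural killer cluster, 0.27 in B cell-like cells and 0.0216 in neutrophil-like cells.

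Neutrophil-like and monocyte-like cells had lower levels of most of these genes in metastasis-bearing than in naive blood, in both genotypes. The comparison asks whether brain metastases go with changed expression in circulating cells. Each group was 1 sample, so no test was made, and the tables were normalised separately by the authors. A gene was counted where it was at least 1.5-fold lower in Hom and in Het, with at least 20 counts in each pair of samples. In neutrophil-like cells this held for 5 of the 7 genes with enough counts in both pairs (Igtp, Irgm1, Irgm2, Gbp2 and Gbp5), and 1.78% of 7354 genes met the rule. In monocyte-like cells it held for 5 of 8 (Igtp, Gbp2, Gbp3, Gbp5 and Gbp7), against 6.89% of 7694 genes. In B cell-like cells it held for 0 of 9 (1.13% of 8950 genes), and in T and natural killer cells for 0 of 9 (0.778% of 7323 genes).

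In neutrophil-like cells the summed level of the 10 genes was 2.14 in metastasis Hom and 1.86 in metastasis Het, against 3.75 in naive Hom and 3.59 in naive Het. Gbp2 had a level of 0.394 in metastasis Hom against 0.704 in naive Hom, and 0.306 in metastasis Het against 0.865 in naive Het. The ratio of metastasis to naive had a counting interval of 0.433 to 0.726 in Hom and 0.28 to 0.444 in Het. These intervals can be too narrow, because they use corrected counts and the 301 of naive Het came from 158 cells. Irgm1 had a level of 0.329 in metastasis Hom against 0.636 in naive Hom, and 0.267 in metastasis Het against 0.526 in naive Het. Both metastasis samples lay below both naive samples for these 2 genes. Gbp7 had a level of 0.566 in metastasis Hom against 0.796 in naive Hom, and 0.567 in metastasis Het against 1.02 in naive Het, which was under 1.5-fold in Hom. Among the genes with enough counts Gbp9 differed least, with log2 ratios of -0.29 in Hom and -0.01 in Het. Genes with too few counts could go both ways. Gbp3 was higher in metastasis Hom than in naive Hom (14 against 2 counts) and lower in Het (9 against 37 counts). Gbp4 had log2 ratios of 0.18 in Hom and -0.17 in Het. Gbp2 had a count in 11.4% of metastasis Hom and 7.88% of metastasis Het cells, against 14.3% of naive Hom and 19.9% of naive Het cells, at median depths of 3285 and 3110 against 2827 and 3036 UMIs.

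In monocyte-like cells the summed level was 2.14 in metastasis Hom and 1.90 in metastasis Het, against 4.67 in naive Hom and 3.59 in naive Het. Gbp2 had a level of 0.162 in metastasis Hom against 0.983 in naive Hom, and 0.211 in metastasis Het against 0.415 in naive Het. Gbp3 had a level of 0.213 in metastasis Hom against 0.841 in naive Hom, and 0.198 in metastasis Het against 0.493 in naive Het. For both genes the 2 metastasis samples lay close together and below the naive samples, which were apart from each other. Irgm1 stayed nearer, at 0.855 in metastasis Hom against 1.18 in naive Hom and 0.715 in metastasis Het against 0.986 in naive Het. Gbp9 went opposite ways in the genotypes. It was higher in metastasis Hom, at 0.187 against 0.120 in naive Hom, and lower in metastasis Het, at 0.134 against 0.336 in naive Het. Markers of Ly6c-high monocytes also moved: they summed to 146 in metastasis Hom and 177 in metastasis Het, against 75.5 in naive Hom and 68.0 in naive Het, with none of the 7 markers at 0, and their part in the result was not tested. In neutrophil-like cells red cell markers (5 genes, at most 1 of them at 0) summed to 1.71 in metastasis Hom and 1.38 in metastasis Het, against 20.2 in naive Hom and 21.8 in naive Het, and neutrophil markers to 1900 and 2150 against 1829 and 2461. The part of the red cell markers was not tested.

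**Figure D5:**
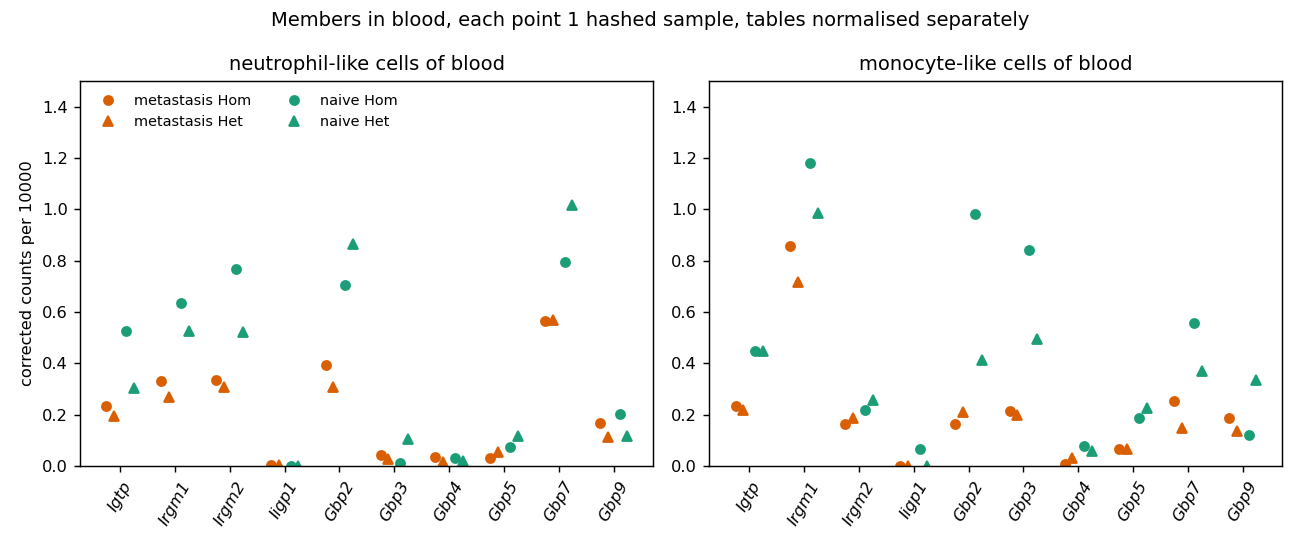
Level of each gene (y axis, corrected counts per 10000) in neutrophil-like (left) and monocyte-like (right) blood cells, metastasis in orange and naive in green, circles for Hom and triangles for Het. Each point is 1 hashed sample without replicates; for Gbp2 and Irgm1 in neutrophil-like cells both orange points lie below both green points.

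The effect of the separate normalisation was described with 845 barcodes that stood in both blood tables. These cells were left out of the main results because their barcodes were not unique to a table. Their values are not split by cell class, so they cannot show the effect in neutrophil-like or monocyte-like cells. For 9 of the 10 genes the levels of the same cells differed between the tables by log2 0.01 to 0.13, and for Iigp1 by log2 -0.55 (metastasis table over naive table, 9 against 14 counts). Lower levels were also found among other interferon targets. In neutrophil-like cells 4 of 17 other interferon gamma targets and 6 of 15 type I interferon targets met the rule, beside 1.78% of all genes. In monocyte-like cells the counts were 3 of 17 and 5 of 16 in the same lists, beside 6.89% of all genes. The median log2 ratio of the type I targets in neutrophil-like cells was -0.30 in Hom and -1.24 in Het, and that of the 7 IRG and GBP genes with enough counts was -0.94 in Hom and -0.84 in Het. With cells thinned to 1000 corrected counts, 5 genes in neutrophil-like and 2 in monocyte-like cells had enough counts, of which 2 and 1 met the rule. The share of all genes in thinned cells is not given here.

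The genes that differed between Hom and Het within 1 blood table varied with the cell class. In naive blood 8 of 35 gene-by-class pairs were at least 1.5-fold apart, 5 higher and 3 lower in Hom. All genes passed that fold in 28.9% of cases in neutrophil-like, 9.08% in B cell-like, 16.2% in monocyte-like and 15.2% in T and natural killer cells. In metastasis-bearing blood 6 of 34 pairs were that far apart, 4 higher and 2 lower in Hom, where 13.8%, 11.7%, 12.5% and 14.4% of all genes were in the same classes. By class, the pairs were 4 of 8 in neutrophil-like, 1 of 9 in B cell-like, 3 of 8 in monocyte-like and 0 of 10 in T and natural killer cells of naive blood. In metastasis-bearing blood they were 1 of 8, 4 of 9, 1 of 8 and 0 of 9 in the same order. Gbp2 in naive monocyte-like cells had 0.983 in Hom against 0.415 in Het, a ratio with a counting interval of 1.60 to 3.58. Gbp9 in the same cells went the other way, at 0.120 in Hom against 0.336 in Het (ratio interval 0.162 to 0.733). In metastasis-bearing blood the same cells had Gbp2 at 0.162 in Hom and 0.211 in Het, and Gbp9 at 0.187 in Hom and 0.134 in Het. These intervals cover counting error only, with 1 sample per group. The naive monocyte-like samples also differed in markers of other cells. Neutrophil markers summed to 12.15 in naive Hom and 62.77 in naive Het, and red cell markers to 39.72 and 0.661. The part of these markers in the ratios was not tested.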

How the data were processed

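Single-cell RNA of 1 pool of 8 hashed mouse samples was used. The submitters' processing notes list Cell Ranger 3.1 and the build mm10. Expression is deposited as natural log values, ln(1 + x), where x is a count corrected within each table, by SCTransform as the deposited column names show. Back-transformed values were whole to within 2.18e-11, so corrected counts were rebuilt, and they are not raw counts. Cluster numbers, genotypes, hashtag identities and count totals per cell are other deposited columns, made by the authors. Antibody-tag data were not used. Doublets were treated by the single-table and hashtag filters alone.

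Corrected counts were summed per hashed brain sample and authors' cluster, divided by their total after adding a pseudocount of 1 scaled to depth, and tested with limma 3.58.1 (trend) in R 4.3.3, for genes with at least 20 counts, with Benjamini-Hochberg adjustment over all genes tested and a threshold of 0.05. The fit was tested on simulated data. A count model does not suit corrected counts. Blood, with 1 sample per group, has Poisson and exact conditional binomial 95% intervals, covering counting error only. They use corrected counts, so they can understate the counting error. Blood classes were authors' clusters named by markers; the T and natural killer class joins 2 clusters in metastasis-bearing blood and is 1 cluster in naive blood.

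The genes, lists and tests were chosen with earlier results of these data known. Named were all 10 genes, list genes that passed limma or had most counts, and the 8 genes most alike. H2-Q4, H2-Q6, H2-Q7, Ctgf, Tmem86a, Meg3, Ifng, Irf1, Tgtp1, Tgtp2, Gm4841, Gm4951 and Gvin1 were named after their values were seen. The comparison of metastasis-bearing with naive blood was added after the data had been seen. Alternatives covered the cells used, the pseudocount, the count minimum, the scaling, thinning and left-out samples. One gene of the signalling list is not reported here.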

Additional observations from a re-analysis of the deposited data

How the results depend on the processing

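All 128 log2 differences of the 10 genes in brain cluster 6 under 13 alternatives were above 0. They lay between 0.11 (Gbp5 in thinned cells) and 3.26 (Igtp in Plvap-side cells), means of ln values included, which are on another scale. The alternatives reused the same samples, so they are no separate check. Leaving out 1 sample had to give values above 0, because the genotypes overlapped for none of the genes. Dropping the count minimum left the differences unchanged. The number of calls varied. Against 4 in cluster 6, there were 0 with a hashtag share of 0.8, 1 with thinned cells (2828 genes tested), 9 with mean ln values, and 8 in endothelial-marker and in Plvap-side cells; leaving out 1 sample gave 0 to 10. Against 1 in the other brain clusters (74 of 34691 tests over all genes), there were 2 with no minimum count (179 of 56992) and 0 with thinned cells (18 of 15040). For cluster 6 against microglia-like cells there were 0 (0 of 8259 over all genes), and 5 with mean ln values (24 of 8259). Where 1 sample of a genotype is left, it is assumed to vary like the other genotype. In blood, thinned cells gave 2 differences between Hom and Het past 1.5-fold in metastasis, against 6, and 5 in naive blood, against 8. The number of genes lower in metastasis in both genotypes was 2 in thinned neutrophil-like cells, against 5, and 1 in thinned monocyte-like cells, against 5, with fewer genes having enough counts. In monocyte-like cells it was 3 with all deposited cells. The shares of all genes under these blood settings are not given here, so these counts have no background beside them. Which genes were shared between settings was not counted. The cause of the other changes was not tested. With the genotypes pooled, each gene had its highest level in cluster 6 in all deposited cells, with a hashtag share of 0.8 and in thinned cells; in CCR2+/- samples alone Gbp4 was higher in cluster 4. No paired analysis was possible because the deposited hashtags carry no replicate number: the numbers 1 and 2 used here follow hashtag order and tie no samples together. The 2 samples per genotype and counts under 20 limit what could be detected.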

Other observations

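Igtp had more counts than the other 9 genes together in platelet-like cells of 3 of the 4 blood samples, the exception being metastasis Het. These cells carried 6 of 6 platelet markers and were few. In metastasis-bearing blood Igtp had a level of 3.94 in 11 Hom cells, where 11 of 16 counts came from 1 cell, and 0.354 in 39 Het cells (5 counts). The other 9 genes together had 1 count in those Hom cells and 8 in those Het cells. In naive blood Igtp had 17 counts in 22 Hom cells and 26 counts in 29 Het cells, or levels of 2.10 (95% Poisson interval 1.22 to 3.36) and 2.42 (1.58 to 3.55), while the other 9 genes together had 0 and 2 counts. A count of Igtp was found in 7 of the 22 naive Hom cells and 8 of the 29 naive Het cells, whose median UMI counts were 763 (Hom) and 915 (Het). Of the 26 counts in naive Het, 9 came from 1 cell. At these low depths the cells held 80945 (Hom) and 107339 (Het) corrected counts in all. The intervals were made from corrected counts, so here they understate the counting error. In naive neutrophil-like cells, by comparison, Igtp had levels of 0.525 in Hom and 0.302 in Het. These values are a description, with 1 sample per group.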
